A study of Drosophila melanogaster with 12 samples.

Results

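Untreated heads of the fly mutant Shu were compared with untreated wild type heads across all genes that the arrays could measure. The comparison used 6 of the 12 Affymetrix arrays of the series, chosen by their titles: 3 of CS_0, the wild type line CS without treatment, and 3 of Shu_0, the mutant line Shu without treatment. The other 6 arrays hold the same lines on 50 mM lithium (CS_50 and Shu_50), and they are used only to set a second genotype difference beside the first. For Shu_50 the labels give the dose alone, and lithium comes from the series title. Every sample is labelled as whole head RNA, and every sample carries the treatment type acclimatization, so the untreated groups share it. The gene annotation lists Shu, in full Shudderer, among the names of para. Sex, age, how many copies of the mutant allele the flies carried, and whether the CS and Shu lines share a genetic background are not given in the sources used here. Effects of the allele and other differences between the lines therefore cannot be told apart. Nothing in the labels says that replicates came from separate cultures, so the p-values measure the spread between these samples, which may be technical.

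The gene para encodes the pore-forming subunit of the voltage-gated sodium channel that carries action potentials in fly neurons. Alleles that alter the opening or closing of the channel make flies prone to seizures, paralysis or tremor, and Shudderer is a dominant allele known for twitching and shaking. A fly head holds brain and retina, and also fat body, muscle, blood cells and the epidermis that makes the cuticle. In a whole head, fewer cells of a type and less RNA per cell cannot be told apart.

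The markers fit the label of whole heads. A gene was tested only if it passed a signal filter, so the count that failed the filter is what informs. Of the listed markers, 5 of photoreceptors, 6 of neurons and 6 of glia were tested and 0 lay below the filter. The rest of these had no probe set named here. Arr2, an arrestin of the eye, had a mean signal of 12981 in CS_0 and 13513 in Shu_0, and elav, a nuclear protein of neurons, had 439 and 427 on its own probe set. Of 8 markers of testis and male accessory gland, 6 lay below the signal filter. Markers of ovary and chorion moved with the replicate number 2 in both genotypes. The mean of the 5 tested, in log2 units relative to CS_0, was -1.09, 1.13 and -0.0471 on the CS_0 arrays and -0.353, 1.11 and -0.459 on the Shu_0 arrays, so the groups overlapped. The female-enriched yolk protein genes Yp1, Yp2 and Yp3 differed by log2 0.08, 0.03 and 0.05, and none was called.

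Of 11261 probe sets tested, limma called 571, or 5.07%, at a Benjamini-Hochberg adjusted p under 0.05. Of these, 238 (2.11% of those tested) were higher in Shu_0 and 333 (2.96%) were lower. Before adjustment, 2252 had a p under 0.05. The 3 arrays of one genotype lay wholly above the 3 of the other for 2611 probe sets (23.2%), among them 563 of the 571 called. Most differences were small. The median size of a called difference was log2 0.376, or 1.3-fold, 99 were over 1.5-fold, and 26 were over 2-fold, of which 18 were higher and 8 lower. A called probe set named 1 gene in 491 cases, several genes in 11 and no gene in 69. Counted by gene, with the probe set of highest mean for each, 192 of 8611 genes were higher (2.23%) and 254 were lower (2.95%), together 446 (5.18%).

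A pair of arrays weighed heavily on these counts. On the first principal component of the untreated arrays, which held 32.8% of their variance, CS_0 replicate 3 lay at -22.8 and Shu_0 replicate 1 at 18.6, with the other 4 arrays between -8.4 and 11.6. Without CS_0 replicate 3 the fit called 155 probe sets, and without Shu_0 replicate 1 it called 129. Without both it called 31, all of them among the 571, and without Shu_0 replicate 3 it called 261. Without limma's intensity trend, which sets the expected spread by signal level, 59 were called. Replicates of a genotype correlated at 0.985 to 0.987 and arrays of different genotypes at 0.977 to 0.986. One signal of RNA quality moved with genotype: the log2 ratio of 3′ to 5′ control probe sets for eIF-4a was 2.69, 2.66 and 2.96 in CS_0 and 2.46, 2.65 and 2.50 in Shu_0, without overlap. The same ratio overlapped between genotypes for actin and GAPDH. The part of this ratio in the differences below was not tested. A set of 103 was called whichever of the 6 untreated arrays was left out, and 23 (14 higher and 9 lower) were called under all 16 alternative settings.

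The transcript of para itself was not called. Its probe set (1627300_at, gene at X:16455027-16533096 in genome release 6) gave signals of 72.6, 77.9 and 70.1 in CS_0 and 87.1, 99.9 and 82.8 in Shu_0. Every mutant array lay above every wild type array, and the log2 difference was 0.27 ± 0.10 (limma's SE, n = 3 arrays a group, as throughout), with an adjusted p of 0.156. Since Shudderer is known as an allele that alters the channel protein, the level of the transcript does not check the labels. Of the 17 tested genes of the sodium channel, its regulators and other loci known from seizure mutants, 2 were lower and none higher. That was 11.8% lower, against 2.95% of all genes tested. The auxiliary subunit gene tipE, which raises sodium current in fly neurons, had signals of 210, 216 and 246 in CS_0 and 137, 176 and 141 in Shu_0 (-0.56 ± 0.12, adjusted p = 0.0142). The translational repressor pum, known to act on para RNA, fell by 0.29 on the log2 scale (adjusted p = 0.0141), and a further pum probe set gave -0.17 and was not called. Both calls were lost without CS_0 replicate 3 and also without Shu_0 replicate 1. The related subunit genes Teh1, Teh2, Teh3 and Teh4 were not called, at -0.16, 0.08, -0.27 and -0.08.

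Some genes of the cuticle, the chitin and protein coat that epidermal cells secrete, were higher in the mutant. Of 39 tested cuticle and chitin genes, 7 were higher in Shu_0 (17.9%, against 2.23% of all genes tested) and none lower. The median log2 difference was 0.111, against 0.0183 over all genes tested. The mean of the 39 overlapped between genotypes, with CS_0 replicate 3 at 0.0854 and Shu_0 replicate 2 at 0.0615. Of those 39 genes, 5 were called higher without CS_0 replicate 3, 5 without Shu_0 replicate 1 and 1 without both. Over the same fits the count of all genes called higher went from 192 to 63, 46 and 16.

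Acp65Aa, a cuticle protein known from adult cuticle (3L:6152050-6152745), had signals of 149, 145 and 190 in CS_0 and 286, 276 and 332 in Shu_0. No array overlapped, and the difference of 0.87 ± 0.11 (adjusted p = 0.000439) was called under all 16 alternatives. The probe set shared by the cuticle genes Ccp84Aa and Ccp84Ab gave 415, 404 and 356 in CS_0 against 902, 795 and 783 in Shu_0. That is a log2 difference of 1.07 ± 0.08 (adjusted p = 1.24e-06), and the probe set cannot say which copy differed. The chitin-binding cuticle proteins Cpr62Bc, Cpr62Bb and Cpr92F were higher by 0.50, 0.35 and 0.35. The chitin deacetylases serp and verm, neighbours on 3L that modify chitin, were higher by 0.34 ± 0.06 (adjusted p = 0.00453) and 0.41 ± 0.09 (adjusted p = 0.0137). The seventh member was kkv, a chitin synthase, at 0.46 (adjusted p = 0.0255), named here after its value was seen. The calls of verm and Cpr62Bb were lost without Shu_0 replicate 1.

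Genes outside that list were higher too. Vajk2, a member of a small cuticle-associated family, had signals of 368, 387 and 395 in CS_0 and 677, 578 and 667 in Shu_0 on one probe set (0.73 ± 0.08, adjusted p = 0.000119). A brighter probe set of Vajk2 gave 0.45 (adjusted p = 0.00208), and its neighbour Vajk3 gave 0.35 ± 0.06 (adjusted p = 0.00453). yellow-d2, of the yellow family known for pigment and cuticle, was higher by 0.67 (adjusted p = 0.0079), though not once Shu_0 replicate 1 was left out. Plod, which modifies collagen lysines, was higher by 0.48 (adjusted p = 0.00126). A short gene of no given function here, CG13043 (3L:16305225-16305870), had 250, 261 and 234 against 404, 462 and 400 (0.75 ± 0.08, adjusted p = 0.000106). CG4962, close by on 3L, was higher by 0.57, and CG14687 on 3R by 0.54. Plod, CG13043, CG4962, CG14687 and both Vajk2 probe sets were each called under all 16 alternatives.

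**Figure D1:**
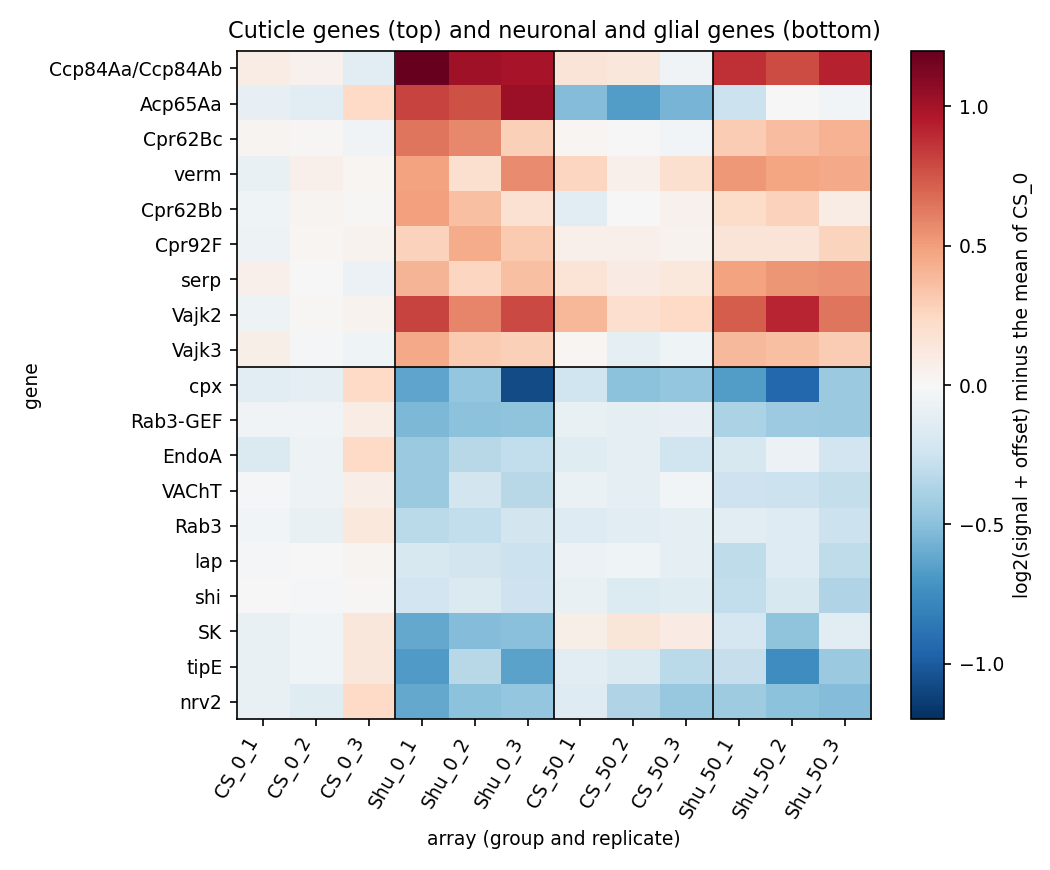
Each row is a gene and each column an array, coloured by log2(signal + offset) minus the mean of the 3 CS_0 arrays, for cuticle genes (top) and neuronal and glial genes (bottom). Only probe sets called in this comparison are drawn, and list members and further probe sets without a call are left out. The red Shu_0 columns of the 9 cuticle rows and the blue ones of the 10 lower rows therefore follow from that choice. In the lower rows most CS_0 replicate 3 cells are the reddest of the CS_0 block.

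The largest rise of any named gene was in the antimicrobial defence. Antimicrobial peptides of the IMD pathway are secreted by fat body and other tissues when bacterial peptidoglycan is sensed. Of 12 listed genes of that set, 3 were tested and called higher, 1 (edin) lay below the signal filter, and 8 had no probe set named here. DptB, a diptericin (2R:18867391-18867895), gave signals of 667, 112 and 112 in CS_0 and 4668, 2172 and 1460 in Shu_0. The lowest mutant array was thus above the highest wild type array, and the log2 difference was 3.54 ± 0.70 (adjusted p = 0.0103). Within each genotype replicate 1 was the highest. AttD, an attacin, was dim, at 0.869, 1.76 and 3.45 in CS_0 and 38.6, 21.8 and 10 in Shu_0 (1.73 ± 0.36, adjusted p = 0.0136). All 3 CS_0 values of AttD lay below the filter's signal of 11.5, and it was tested only because other groups were brighter, so its rise adds no support to the count. The cecropin CecB had 37.4, 19.3 and 29.2 against 118, 90.7 and 60.9 (1.45 ± 0.34, adjusted p = 0.0242). The secreted recognition protein PGRP-SB1, an amidase that cuts peptidoglycan, had 1108, 565 and 599 against 2831, 1887 and 1465 (1.45 ± 0.31, adjusted p = 0.0149).

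The spread behind these rises was wide. Without Shu_0 replicate 1, the brightest mutant array for all 4 genes, none of DptB, AttD, CecB and PGRP-SB1 was called. Without CS_0 replicate 3 DptB, CecB and PGRP-SB1 lost their calls too. The other 7 tested peptidoglycan recognition proteins were not called, among them PGRP-SC2 at 0.82 (adjusted p = 0.154) and PGRP-LB at 0.39 (adjusted p = 0.199). Of 20 genes of IMD and Toll signalling 1 was higher, the Toll adaptor Myd88 (0.37, adjusted p = 0.0492). Of 13 tested Toll-driven peptides and Bomanins none was higher and 1 was lower, BomT2 (-0.23, adjusted p = 0.0488), and the median of the 13 was -0.118. Vago, a secreted protein known from the antiviral response (X:11089290-11090219), was steadier, at 299, 247 and 249 in CS_0 and 522, 407 and 454 in Shu_0 (0.78 ± 0.13, adjusted p = 0.00401). It stayed called whichever untreated array was left out. The call was lost without the intensity trend (limma adjusted p = 0.06). It was also lost with CS_0 replicate 3 and Shu_0 replicate 1 both left out (adjusted p = 0.108).

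**Figure D2:**
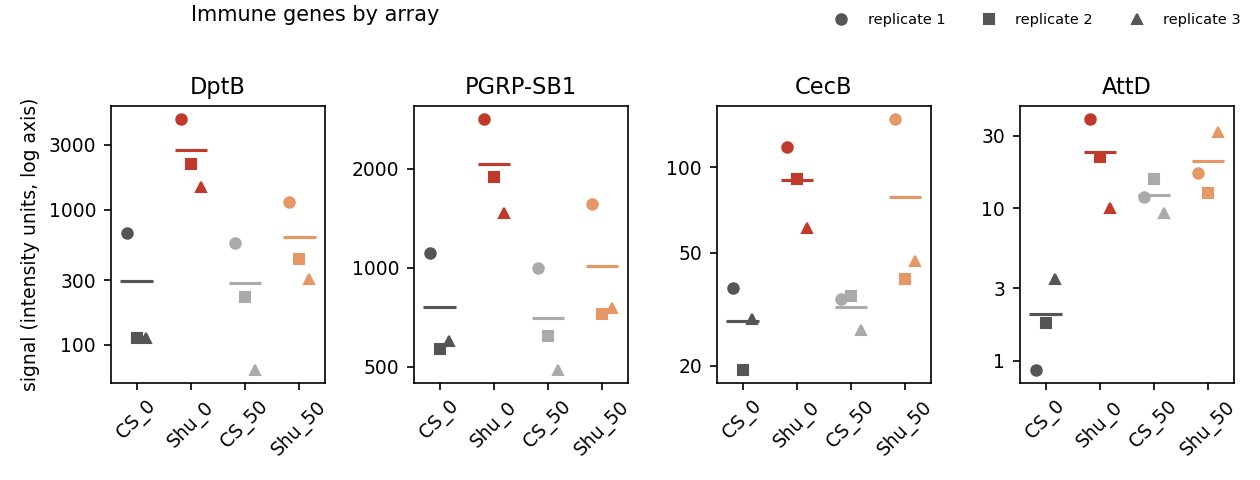
Signal in intensity units on a log axis for 4 immune genes, with a point for each array (shape gives the replicate number) and a bar for the group mean. For DptB the Shu_0 arrays lie between 1460 and 4668 and the CS_0 arrays between 112 and 667, and replicate 1 is the highest of each of the 4 groups.

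Among the 26 probe sets over 2-fold, 6 name no gene. Of these, 4 were higher and 2 lower. Probe set 1641419_at gave 1189, 220 and 196 in CS_0 and 5607, 3290 and 1934 in Shu_0 (3.12, adjusted p = 0.0155). Probe sets 1627551_s_at and 1625124_at were higher by 2.96 and 2.61. In all 3 of these probe sets the order of the Shu_0 arrays was that of DptB, and their calls were lost without Shu_0 replicate 1 as well. They were singled out after their values were seen.

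The fat body is the insect organ of storage and of humoral immunity. Of its 10 tested markers, 3 were higher in Shu_0 (30%, against 2.23% of all genes tested), none was lower and 7 were not called. Lsd-1, a lipid droplet protein, had 586, 530 and 534 in CS_0 and 1093, 892 and 763 in Shu_0 (0.72 ± 0.14, adjusted p = 0.00916). Fbp2, a fat body protein, was higher by 1.07 at low signal (adjusted p = 0.0247), and Lsp2, a larval serum storage protein, by 0.41 (adjusted p = 0.0406). Without Shu_0 replicate 1 none of the 3 was called, and Fbp2 and Lsp2 each lost the call in 5 of the 6 fits that left out an untreated array. Several abundant products of the tissue were not called, with mean signals of 8860 and 8461 for apolpp, 5310 and 5650 for Tsf1 and 12941 and 13763 for Yp1. The mean of the 10 ran from -0.16 to 0.0866 on the CS_0 arrays and from 0.244 to 0.441 on the Shu_0 arrays, in log2 units, without overlap. The dim genes Fbp1 (mean signals of 6.81 and 14.6) and Fbp2 (15.1 and 36.5) weighed on that mean. The median of the 10 differences was 0.154, against 0.0183 over all genes tested. Means of many other lists, such as that of the proteasome, did not overlap either. No tested marker was at 0, and the part of these values in the immune and lipid differences was not tested. Markers of hemocytes, the blood cells, were not called, with Hml at 0.23 (adjusted p = 0.0789).

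Of 28 tested genes of the synaptic vesicle cycle, which fill, fuse and recycle transmitter vesicles, 6 were lower in the mutant, none was higher and 22 were not called. That was 21.4% lower, against 2.95% of all genes tested. The median was -0.187, against 0.0183 over all genes tested, and 6 of the 28 lay above 0. The complexin gene cpx, whose protein clamps vesicle fusion, had signals of 6227, 6368 and 8078 in CS_0 and 4413, 4971 and 3256 in Shu_0 (-0.72 ± 0.14, adjusted p = 0.0103). A further cpx probe set read 1351, 1312 and 1310 against 1366, 1326 and 1321, with a difference of 0.01, so the fall was seen by 1 of 2 probe sets. The other 5 were VAChT, which loads acetylcholine into vesicles (-0.33), the vesicle GTPase Rab3 (-0.28), the endocytic proteins EndoA (-0.36) and lap (-0.22), and the dynamin shi (-0.22). For shi, 2 further probe sets read -0.02 and -0.14 and were not called. Without CS_0 replicate 3, the brightest wild type array for all 6, the count was 1 and the median -0.125. Without Shu_0 replicate 1 the count was also 1, and without both it was 0. Over the same fits the count of all genes called lower went from 254 to 61, 60 and 10.

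A few neuronal genes kept their calls when any single array was left out. Rab3-GEF, an exchange factor for Rab3 (X:15089682-15113762), had 525, 524 and 576 in CS_0 and 370, 383 and 386 in Shu_0 (-0.50 ± 0.06, adjusted p = 0.000189), and it was called under all 16 alternatives. SK, a calcium-activated potassium channel, had 559, 572 and 655 against 385, 413 and 418 (-0.54 ± 0.09, adjusted p = 0.00289). A further SK probe set was lower by -0.30 (adjusted p = 0.0232) and a dim one gave -0.29 without a call. nrv2, a sodium pump subunit prominent in glia, fell by 0.52 (adjusted p = 0.00504). The first SK probe set and nrv2 kept their calls whichever untreated array was left out, while the second SK probe set lost its call without Shu_0 replicate 1 or any 1 of the CS_0 arrays. The fly Fos gene kay, a transcription factor that answers neuronal activity among other cues, fell by 0.61 (adjusted p = 0.00558) and kept its call in the same way. Its partner Jra, the fly Jun, was higher by 0.34 (adjusted p = 0.024), a call lost when CS_0 replicate 2 or 3 or Shu_0 replicate 1 or 3 was left out. With CS_0 replicate 3 and Shu_0 replicate 1 both left out, the first SK probe set, nrv2 and kay lost their calls. Their limma adjusted p was then 0.081, 0.108 and 0.126. Without the intensity trend nrv2 and kay lost their calls too.

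Other neuronal calls rested on fewer arrays. The glutamate-gated chloride channel GluClalpha fell by 0.59 (adjusted p = 0.033), while its 2 further probe sets gave -0.12 each and were not called. Cadps, needed for dense-core vesicle release, fell by 0.70 on one probe set (adjusted p = 0.0125) and read 0.02 on another. Of 35 neurotransmitter receptors, 2 (5.71%) were lower and 1 (2.86%) higher, against 2.95% and 2.23% of all genes tested. The higher one was the acetylcholine receptor subunit nAChRbeta3 (0.48, adjusted p = 0.0358). Of 27 neuropeptide genes, sNPF (-0.40) and AstC (-0.27) were lower and Nplp4 (0.37) and Capa (0.38) higher. None of the 22 tested calcium, chloride, cation and TRP channels and none of the 22 phototransduction genes was called at adjusted p under 0.05 by limma, although 3 of each were lower at an unadjusted p under 0.05. None of the 6 neuron markers was called, and their mean overlapped between genotypes. The mean of the 6 glia markers was lower by 0.122 without overlap, their median was -0.0476, and nrv2 was the called member. The means of many other lists did not overlap either, such as those of the proteasome and of neuropeptides. Lack of overlap therefore does not set the glia markers apart. The part of these marker values in the synaptic differences was not tested.

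Of 14 circadian clock genes, 2 fell (14.3%), in a comparison where 2.95% of all genes tested were lower. The clock activator Pdp1 had 1116, 1020 and 1153 in CS_0 and 904, 882 and 822 in Shu_0 (-0.33 ± 0.06, adjusted p = 0.00569), and the repressor cwo fell by 0.43 (adjusted p = 0.00897). The call of cwo was lost without Shu_0 replicate 1, and the time of day of collection is not given in the sources used here. Of 12 genes of calcineurin and calcium signalling 2 fell, the calcium buffer Cbp53E (-0.26, adjusted p = 0.011) and the calcineurin subunit gene CanA-14F (-0.38, adjusted p = 0.015).

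CanA-14F (X:16560684-16587172), which neighbours para, gave opposite readings from its probe sets. The brighter one, 1625316_s_at, read 252, 266 and 311 in CS_0 and 197, 223 and 208 in Shu_0, which is the fall above. The dimmer one, 1623931_s_at, read 33.5, 26 and 39.6 in CS_0 and 65, 72.5 and 81.8 in Shu_0, a rise of 1.02 ± 0.15 (adjusted p = 0.00224). The fall lost its call without CS_0 replicate 3 and also without Shu_0 replicate 1. The rise kept its call whichever untreated array was left out. On lithium the brighter probe set read -0.30 (limma adjusted p = 0.133) and the dimmer one 1.01 (adjusted p = 0.0032). Since the probe sets disagree, no direction can be given for the gene as a whole. Fis1, a mitochondrial fission gene, was the only other called gene of this kind, at -0.66 and 0.26. Among 106 called genes that more than 1 tested probe set measures, the signs disagreed for 51, and for 9 each probe set was called.

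The differences of lowest p belonged to a few genes with large and even shifts. CG31809, a gene annotated at 2L:16853620-16858714, had signals of 30.8, 27.5 and 20.4 in CS_0 and 141, 192 and 176 in Shu_0 (2.44 ± 0.15, adjusted p = 1.09e-07). A probe set shared by CG31809 and its neighbour CG31810 was higher by 1.65. hgo, whose enzyme breaks down the tyrosine product homogentisate, had 316, 278 and 251 against 155, 154 and 147 (-0.86 ± 0.09, adjusted p = 5.34e-05). It was the called member among 6 genes of tyrosine and phenylalanine breakdown. CG7299 had 1009, 1056 and 1021 against 556, 555 and 604 (-0.84 ± 0.07, adjusted p = 1.42e-05). CG17364 fell by 0.85 on one probe set (adjusted p = 0.000928), while further probe sets read 0.09 and -0.44 and were not called. The garnet gene g, which sorts cargo to pigment granules of the eye, fell by 0.59 (adjusted p = 0.000559). Dyro (-0.87, adjusted p = 0.00277), CG12605 (-0.70, adjusted p = 0.000439) and CG3961 (-0.52, adjusted p = 0.00126) were likewise called under all 16 alternatives.

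The largest falls in fold were of dim probe sets. CG9377 had 61.3, 69.7 and 78.1 in CS_0 and 3.13, 2.2 and 16.3 in Shu_0 (-2.64 ± 0.39, adjusted p = 0.00194). The call of CG9377 held whichever untreated array was left out, but not without both CS_0 replicate 3 and Shu_0 replicate 1 (limma adjusted p = 0.0619). Its mean signal was 7.22 in Shu_0 and 2.69 in Shu_50, below the filter's signal of 11.5, and 15.4 in CS_50. It was thus tested only because CS_0 was brighter, so passing the filter rested on the same arrays as the fall. The receptor kinase Nrk (-1.36), CG32198 (-1.31), the odorant receptor Or35a (-1.25) and the chloride channel ClC-a (-1.17) had CS_0 signals of at most 31.4, and each lost its call when certain single arrays were left out. A brighter ClC-a probe set read -0.10. A probe set shared by 13 copies of Stellate, X-linked repeats known from the male germ line, read 6.88, 12.2 and 17.3 in CS_0 and 41, 37.8 and 33.7 in Shu_0 (1.29, adjusted p = 0.00916). Among brighter genes, the cytochrome P450 Cyp6a2, known for breaking down insecticides, had 277, 234 and 284 against 118, 167 and 154 (-0.84 ± 0.14, adjusted p = 0.00453).

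Metabolic lists moved little. Of 64 cytochrome P450s, 3 were lower (Cyp6a2, Cyp6a9 at -0.59 and Cyp18a1 at -0.29) and 1 was higher (Cyp28c1 at 0.64). These were 4.69% and 1.56%, near the 2.95% lower and 2.23% higher among all genes tested. Of 31 glutathione transferases, which couple toxins and other substrates to glutathione, 4 were higher: GstE14 (0.33), GstE9 (0.30), the eye pigment enzyme se (0.30) and GstD9 (0.34). None was lower, and the eye-rich GstS1 read 0.07 (adjusted p = 0.684). Without CS_0 replicate 3 no glutathione transferase was called. Thioredoxin genes went the same way, with Trx2 at 0.25 and the reductase Trxr1 at 0.31, while cnc, the fly Nrf2 factor, fell by 0.56 (adjusted p = 0.0416) on one probe set and read -0.23 on a dim one. The calls of Trx2, Trxr1 and cnc were lost without CS_0 replicate 3 and also without Shu_0 replicate 1.

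Of 55 tested subunits of oxidative phosphorylation, 4 (7.27%) were higher, against 2.23% of all genes tested, and none was lower. Of the 55, 49 lay above 0, and the median was 0.105, against 0.0183 over all genes tested. The complex I subunit ND-B18 (X:15063733-15064926), with 1204, 1216 and 1142 against 1549, 1542 and 1467, was higher by 0.35 ± 0.05 (adjusted p = 0.00238). COX4 (0.23), ND-42 (0.28) and SdhD (0.23) lost their calls without CS_0 replicate 3. Of 15 subunits of the vacuolar proton pump, which acidifies organelles, 3 were higher (Vha100-1 at 0.29, VhaM9.7-b at 0.24 and VhaPPA1-1 at 0.21), and none was called without that array. For 26 proteasome genes the median was also 0.105, with 1 called higher.

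Enzymes of fuel use were lower in part. Pepck1, the entry step of gluconeogenesis, had 3041, 3228 and 3875 in CS_0 and 1893, 2039 and 2754 in Shu_0 (-0.61 ± 0.12, adjusted p = 0.00961), and the glycolytic aldolase Ald1 fell by 0.43 (adjusted p = 0.0123). Those were 2 of 24 genes of glycolysis and related paths (8.33%), against 2.95% lower among all genes tested. Neither was called without CS_0 replicate 3. Of 30 lipid genes 3 were higher and 3 lower (10% each), against 2.23% higher and 2.95% lower among all genes tested. SCOT, which activates ketone bodies for use as fuel, had 250, 244 and 223 against 321, 387 and 300 (0.47 ± 0.08, adjusted p = 0.00555), and the storage droplet proteins Lsd-1 and Lsd-2 went opposite ways, at 0.72 and -0.39. The desaturase Desat1 fell by 0.33 (adjusted p = 0.0274). A probe set shared by the amylase genes Amy-p and Amy-d was higher by 0.62 (adjusted p = 0.00372). Nmdmc, a mitochondrial folate enzyme, was higher by 0.68 (adjusted p = 0.0322). Its call was lost when CS_0 replicate 1 or 3 or Shu_0 replicate 2 or 3 was left out. That of Desat1 was lost when CS_0 replicate 2 or 3 or Shu_0 replicate 1 or 3 was left out.

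Of 34 tested odorant binding and chemosensory genes 2 were lower (5.88%), against 2.95% of all genes tested. Obp99a, an abundant secreted binding protein, had 2787, 2237 and 2665 in CS_0 and 1851, 1702 and 1865 in Shu_0 (-0.50 ± 0.08, adjusted p = 0.00375), and Obp56e fell by 0.29 (adjusted p = 0.012). The median of the list had the other sign, 0.149, and its mean on CS_0 replicate 3 was -0.298 against 0.136 and 0.161 on the other CS_0 arrays. None of 28 cytosolic ribosomal protein genes, 11 heat shock genes, 20 UDP-glycosyltransferases or 13 melanization and clotting genes was called by limma, with 1, 2, 3 and 3 at an unadjusted p under 0.05. Among 11 yolk protein and sex-regulated genes, fit was higher (0.46, adjusted p = 0.0285), and msl-2 (-0.52) and Sxl (-0.65) were lower. The Sxl arrays overlapped, and its other probe sets read -0.23 and -0.37 without a call. The calls of fit, msl-2 and Sxl were each lost when CS_0 replicate 2 or 3 or Shu_0 replicate 1 or 3 was left out.

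On the X, called genes were spread along the chromosome. Within 2 Mb of para, 7 of 291 genes were higher and 11 lower, or 6.19%, against 3.72% of 1101 genes farther away on the X and 5.39% of 7185 autosomal genes. The window was chosen after earlier results were known, and these shares are a description. CanA-14F enters as lower, through its brighter probe set alone, and so is not among the genes called in both contrasts. Genes called the same way on lithium lay closer. They were 6 of the 291, 2 of the 1101 and 22 of the 7185. The 6 were CG9512 (0.43), ND-B18 (0.35), Rab3-GEF (-0.50), Had1 (0.55), RSG7 (-0.68) and CG5172 (0.83), between -1.59 and 0.728 Mb from para. Had1, a hydroxyacid dehydrogenase (X:16306912-16308667), had 2792, 2171 and 2797 in CS_0 and 3856, 3566 and 3857 in Shu_0, at -0.186 Mb from para. CG5172 had 661, 581 and 611 against 1222, 1118 and 984 (0.83 ± 0.08, adjusted p = 3.43e-05). The called share by arm was 4.24% on X, 5.19% on 2L, 5.4% on 2R, 5.73% on 3L, 5.09% on 3R and 10.8% on 4, where it was 7 of 65 genes.

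**Figure D3:**
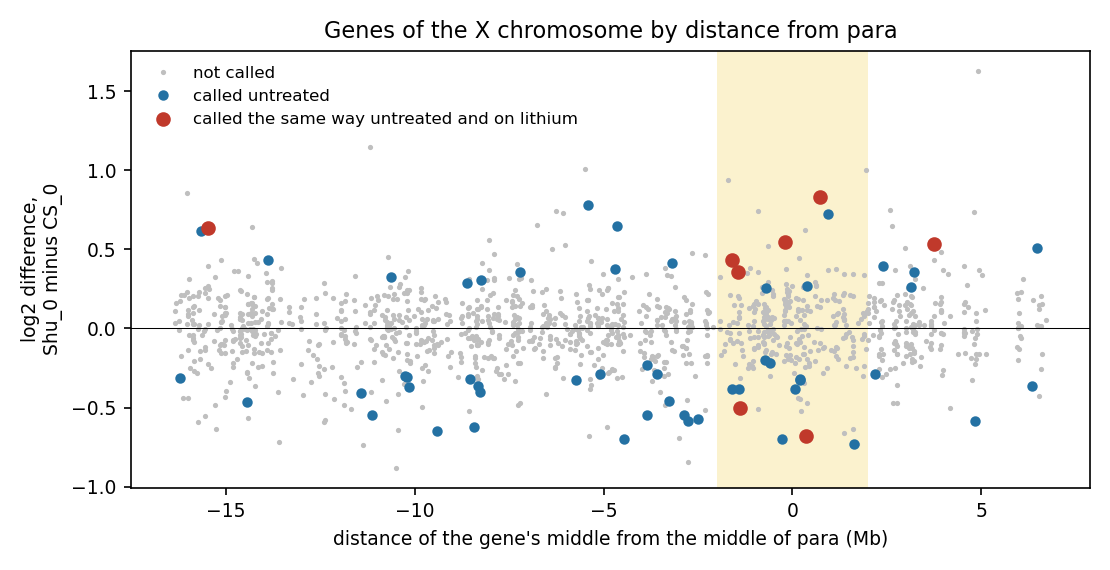
For each tested gene of the X, the log2 difference between Shu_0 and CS_0 is plotted against its distance from para in Mb, with the window of 2 Mb shaded. Of the 8 X genes called the same way untreated and on lithium (red), 6 lie in the window, and called genes of the untreated comparison alone (blue) run along the whole chromosome.

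The genotype difference on lithium, Shu_50 against CS_50, shares no array with the untreated one. Both come from the same fit and share its spread for each probe set, so their p-values are not independent. There limma called 57 probe sets (0.506%), or 42 of 8611 genes (0.488%). Of the 571 probe sets called untreated, 522 (91.4%) had the same sign on lithium, against 62.8% of all tested. An unadjusted p under 0.05 with the same sign was reached by 265 of the 571 (46.4%), and by 7.65% of the tested probe sets that were not called. In both, 39 were called in the same direction, 26 higher and 13 lower, which is 6.83% of the untreated calls and 68.4% of the lithium calls. The difference was smaller on lithium for 532 of the 571, with a median ratio of 0.449. Since the 571 were picked for their untreated values, a smaller second value needs no change by lithium, and the difference itself is tested by the interaction.

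Many of the genes described above were among those called in both contrasts. CG31809 was higher by 2.47 on lithium (adjusted p = 8.94e-08), the Ccp84Aa and Ccp84Ab probe set by 0.78, CG5172 by 0.69, serp by 0.39, Vajk3 by 0.40, Had1 by 0.70, SCOT by 0.62 and the dimmer CanA-14F probe set by 1.01. CG7299 (-0.66), hgo (-0.67), Obp99a (-0.64), Rab3-GEF (-0.32) and Pdp1 (-0.30) were lower again. Of the 39 cuticle genes 2 were called on lithium, both higher, with a median of 0.136. The immune genes were not called there. DptB read 1.35 (adjusted p = 0.475), PGRP-SB1 0.49 and AttD 0.48. CecB read 0.92 (limma's unadjusted p = 0.0163, adjusted p = 0.282) and Vago 0.34 (unadjusted p = 0.0162, adjusted p = 0.281). Nor were any of the 28 synaptic vesicle genes called by limma, with a median of -0.0677.

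The interaction of genotype and lithium called 1 probe set of 11261 (0.00888%), with 758 at an unadjusted p under 0.05. Neither the immune nor the synaptic genes are therefore shown to differ between treatments. One gene, CG8323, was called in opposite directions, at 0.38 untreated and -0.48 on lithium (adjusted p = 0.0343 for each), and its interaction was not called (adjusted p = 0.0613).

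**Figure D4:**
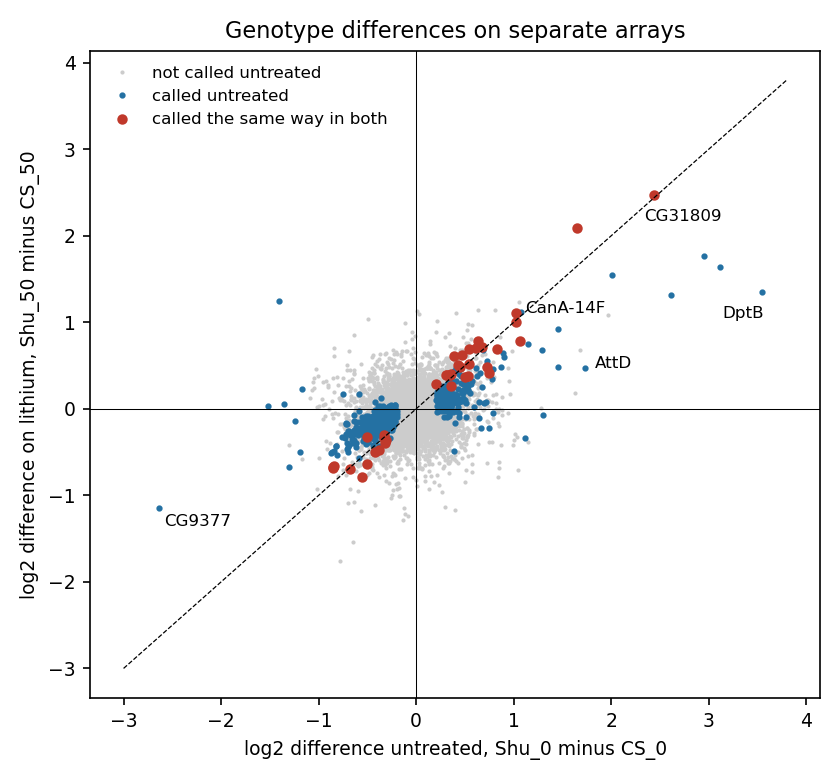
The log2 genotype difference on lithium (vertical axis, Shu_50 minus CS_50) is plotted against the untreated one (horizontal axis, Shu_0 minus CS_0) for each tested probe set, and the dashed line marks equal values. The 39 probe sets called the same way in both are red. They were picked by their values in both contrasts, so their closeness to the line is no separate result. CG31809 lies at 2.44 and 2.47 and CG13043 at 0.75 and 0.41. DptB lies at 3.54 and 1.35, and its interaction was not called (limma adjusted p = 0.734).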

How the data were processed

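RNA from whole heads was measured on 12 Affymetrix arrays in 4 groups of 3. The values the authors deposited are linear intensity per probe set. With 2% of values trimmed from both ends, the mean was 150.005 in all 12 columns, which shows that the arrays had been brought to one scale before deposit. The software is not given in the sources used here, and the extraction protocol is marked as not supplied in the labels. The number of arrays limits the precision.

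Values were analysed as log2(intensity + 6.26), the offset being the 25th percentile of all non-control values, so fold changes of dim probe sets are understated. Of 18952 probe sets, 183 controls were left out, and 11261 with a mean at or above the 40th percentile (signal 11.5) were tested. limma 3.58.1 under R 4.3.3 (lmFit, eBayes with an intensity trend) fitted all 12 arrays, which share 1 spread with 8 residual degrees of freedom. Tests were two-sided with Benjamini-Hochberg adjustment over all 11261, and the procedure was tested on simulated data.

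Names came from the platform annotation, matched by Entrez number to RefSeq genes of genome release 6, from which the coordinates come. Of the tested probe sets 9612 named 1 gene, 275 several and 1374 none. These gave 8611 genes, 8577 with a release 6 entry. In counts by list a gene enters through its brightest probe set, and such counts carry no test.

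The comparison, the 54 gene lists and the naming rule were chosen with earlier results of these data known. The rule named para, the 25 largest rises and falls that did not overlap, the 15 lowest p, up to 6 called genes of each list and up to 20 called in both contrasts. Alternatives were quantile normalization, other offsets and filters, no trend, the 6 untreated arrays alone, array weights, a term for replicate number, and each array left out. Figures used matplotlib 3.10.9.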

Additional observations from a re-analysis of the deposited data

Results flagged for a closer look

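Probe set 1634590_at, which names no gene, was the only one for which the genotype difference on lithium was called different from the untreated one. Its signals were 45, 18.3 and 43 in CS_0 and 11.2, 6.77 and 8.23 in Shu_0, a log2 difference of -1.41 (limma adjusted p = 0.00948). On lithium the difference was 1.25 (adjusted p = 0.0533), so the change between treatments was 2.66 by limma's interaction term. The untreated call was lost without CS_0 replicate 3.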

How the results depend on the processing

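Against 571 probe sets called untreated, dropping the intensity trend left 59, and 324 came from the 6 untreated arrays alone. Leaving out single arrays gave 129 to 691, and leaving out CS_0 replicate 3 and Shu_0 replicate 1 together gave 31. Without Shu_0 replicate 3 it was 261. After removal of group means, none of the 18 same-numbered pairs of arrays correlated over 0.1 (range -0.0649 to 0.0918). Pairs of other numbers ranged from -0.0754 to 0.0714. Such weak correlations over all probe sets cannot decide whether a replicate number marks samples handled together. The ovary and chorion markers and DptB did move with the number. With the replicate block the untreated count was 548, the count on lithium 100 and the interaction count 2. On lithium, 57 became 25 without the trend and 133 with array weights. The interaction count of 1 became 2 with quantile normalization or array weights, and 0 without the filter, with the filter at the 60th percentile or without the trend. The cause of these shifts was not tested. Of 2204 values of named genes under alternatives, 706 lost the call and 0 changed direction. Quantile normalization left the higher share of calls at 41.9%, against 41.7%. Dim probe sets near the filter limit what can be measured.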
